A study of Homo sapiens with 18 samples.

Results

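GFP-expressing MDA-MB-231 cells were compared between 48 h and 6 h of doxorubicin, to find genes that went on changing, turned back or started late after the first hours of the drug. The members are the 4 libraries labelled for these conditions, 2 at 6 h and 2 at 48 h, of 18 in the series and 12 in its inducible system. MDA-MB-231 is an established human line of triple-negative breast adenocarcinoma. The cells carried a doxycycline-inducible GFP construct (pInducer20, introduced by lentivirus and selected with G418), and were given 250 ng/mL doxycycline 4 h before 0.6 µM doxorubicin, which was then left for 6 or 48 h. GFP cells with doxycycline and no drug (0 h, 2 libraries) served as the starting point of the time course. The labels do not state how long these untreated cells were kept in doxycycline. Time in doxycycline and time in drug thus cannot be told apart between 0 and 6 h either. ZMYND8 cells, which carried the same vector with FLAG-tagged ZMYND8 and had 2 libraries at each of 0, 6 and 48 h, served as the most similar comparison. Each construct is represented by 1 selected population, so the libraries of a line are replicates of that population, and the labels call them biological replicates. Cells at 48 h had also spent longer in culture and with doxycycline than cells at 6 h, and no undrugged library of the later time was used here, so time in culture and time in drug cannot be told apart.

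Doxorubicin is an anthracycline that intercalates into DNA and traps topoisomerase II on broken DNA. It evicts histones and blocks transcription through long genes within hours, and cells that survive the first day meet the slower consequences, among them cell cycle arrest, micronuclei, cytosolic DNA or RNA, and the interferon response that such nucleic acids can start. In p53-mutant lines such as MDA-MB-231 the usual p53 programme is blunted. ZMYND8 is a bromodomain, PWWP and MYND zinc finger protein that reads histone marks and recruits corepressors.

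The 4 libraries held 19614037 to 21176172 counts of read pairs on genes, and the 2 untreated GFP libraries 20053500 and 20864386. Levels below are CPM, counts relative to the library size after scaling with TMM factors, the log2 fold changes are fitted values with their standard errors, and adjusted p-values are Benjamini-Hochberg values of edgeR's quasi-likelihood test over 18801 genes. "Rose" and "fell" mean an adjusted p of at most 0.05 at any fold, and "called" means that the change was also at least 1 on the log2 scale. The smallest two-sided p of an exact permutation test of 2 libraries against 2 is 0.333, so single values rest on the fit across genes. The early step is 6 h minus 0 h and the late step 48 h minus 6 h. Both use the 6 h libraries, so an error there enters them with opposite signs.

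Far more genes were detected at 48 h than at 6 h. At least 1 count was found for 22507 and 22587 genes in the 6 h libraries and for 30201 and 30440 in the 48 h libraries, at nearly the same depth. The untreated GFP libraries detected 23280 and 22934 genes, so the 6 h libraries lay just below them and the 48 h libraries far above. Of 33202 genes with no count in any GFP library at 0 or 6 h, 18.1% and 18.5% had a count at 48 h, at a summed unscaled level of 903 and 912 CPM. The same genes had a count in 2.9% to 4% of cases in ZMYND8 cells at 0 and 6 h, and in 17.7% and 18.4% at 48 h. The 100 most abundant genes took 16% and 16.3% of counts at 6 h and 13.1% and 13.2% at 48 h. The composition of the RNA thus differed between the 6 h and 48 h libraries, and polyadenylated RNA per cell was not measured.

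The markers of a mesenchymal-like, triple-negative cell were high in every GFP library and lower at 48 h than at 6 h. VIM, CD44, AXL, CAV1, EGFR and MSN summed to 7822 and 7375 CPM at 6 h and to 4146 and 4056 CPM at 48 h, and all 6 fell, with a median late change of -0.91. With total counts 5 fell, and EGFR changed by -0.06 (adjusted p = 0.26). Of 7 luminal and epithelial markers listed as absent or low in such cells 5 rose and 1 fell, although ERBB2 and EPCAM were not low in these libraries. ESR1, PGR and FOXA1 stayed at or below 0.8 CPM in every library, and CDH1, the epithelial cadherin, is described with the late risers. ESR1 had no count at 6 h and was at least 2.83-fold higher at 48 h. FOXA1 had an adjusted p of 0.13 without the first 6 h library. ERBB2 changed by 0.13 and GATA3 by 0.25 (adjusted p = 0.077), while EPCAM changed by -0.27. ERBB2 had an adjusted p of 0.31 and EPCAM one of 0.082 without the second 48 h library, ERBB2 did not pass without either 6 h library (adjusted p = 0.055 and 0.19), and with scaling to total counts EPCAM had an adjusted p of 0.83. The markers of leukocytes, endothelium, smooth muscle, hepatocytes and glia summed to 27.56 and 28.58 CPM at 6 h and 46.39 and 44.58 CPM at 48 h. In the untreated GFP libraries they summed to 41.26 and 39.34 CPM, so the sum at 6 h lay below the starting level. Of 10 such markers, 5 could be tested and 4 rose (2 without the first 48 h library), and MYH11 had no count in any library. PTPRC, the leukocyte phosphatase CD45, rose from 0.472 and 0.375 CPM to 3.37 and 3.95 CPM. In bulk RNA, fewer cells of a type and less RNA per cell cannot be told apart. What part these low-level markers had in other results was not tested.

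**Figure D1:**
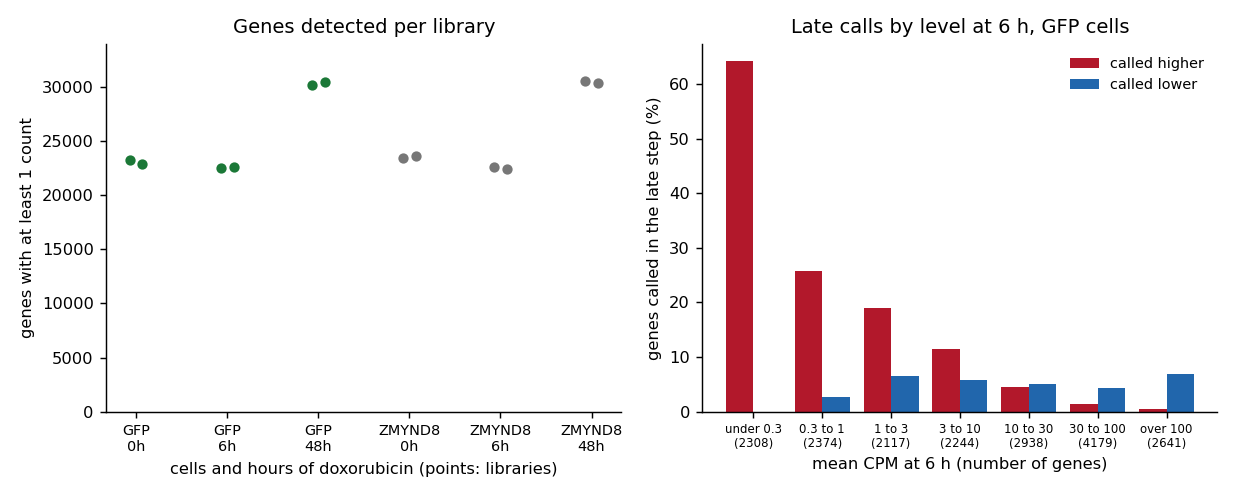
Left, the number of genes with at least 1 count in each library of GFP and ZMYND8 cells at 0, 6 and 48 h of doxorubicin (points are libraries). Right, the share of genes called higher (red) or lower (blue) in the late step in GFP cells, in % of the genes in each range of mean CPM at 6 h. The 48 h libraries of GFP cells lie at 30201 and 30440 genes, and the share called higher drops from 64.1% of genes under 0.3 CPM to 0.417% of genes over 100 CPM.

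Between 6 and 48 h, 2945 genes were called higher and 835 lower, which is 15.7% and 4.44% of the genes tested. At any fold 6019 genes rose (32%) and 5682 fell (30.2%). The called rises were mostly low-level genes. Of 2308 genes with a mean under 0.3 CPM at 6 h, 64.1% were called higher and 0% lower. Many of those could enter the test only through libraries in which they were higher, so that share is no measure of how often silent genes rose. Of 2641 genes over 100 CPM at 6 h, 0.417% were called higher and 6.82% lower, and called falls were the more frequent from 10 CPM upward. Among the called genes with an average log2 CPM of at least 1, 887 were higher and 657 lower. The split also moved with the scaling. With TMM 77.9% of called genes were higher, and with scaling to total counts 90.5%, and total counts shifted the late change of all genes upward by 0.248. At any fold 8726 of the 18801 genes tested then rose and 3384 fell. That is the background of the list counts given below with total counts.

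The 10 largest rises among well-measured genes were OLR1, CCN5, IFI44L, ELF3, SMOC1, RHBDL3, CRABP2, CA2, LUARIS and IQGAP2. OLR1, the oxidised LDL receptor LOX-1, was counted at 0.0507 and 0 CPM at 0 h, 0 and 0.268 CPM at 6 h and 5.77 and 5.76 CPM at 48 h. CCN5, a secreted CCN family protein, stood at 1.06 and 0.58 CPM at 0 h, 0.42 and 0.161 CPM at 6 h and 10.9 and 12.2 CPM at 48 h. Both were close to absent at 6 h, and their late changes were 5.38 ± 0.498 (SE), adjusted p = 3.4e-10 and 5.28 ± 0.332 (SE), adjusted p = 1.7e-13. The size of such a change depends on a few counts at 6 h. For OLR1, the late change was 4.39 without the first 6 h library and 9.92 without the second, and for CCN5 it was 6.10 without the first. CRABP2, which carries retinoic acid into the nucleus, was better measured, at 3.19 and 3.22 CPM at 0 h, 2.05 and 2.36 CPM at 6 h and 38.2 and 38 CPM at 48 h, a late change of 4.11 ± 0.127 (SE), adjusted p = 8.8e-20. RHBDL3, a rhomboid-like membrane protein, went from 0.472 and 0.428 CPM to 9.23 and 8.83 CPM, and its 6 h libraries were near the untreated 0.304 and 0.316 CPM. CA2, a carbonic anhydrase, LUARIS, a long noncoding RNA, and IQGAP2, a scaffold of the cytoskeleton, had late changes of 4.05, 3.90 and 3.90. Without the first 6 h library CA2 moved to 4.87 and IQGAP2 to 4.76, and without the second LUARIS moved to 4.57.

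The 10 largest falls were NAPRT, PTPRK, PARN, XAGE1B, VIPR1, U2AF1, GGT5, EDIL3, THBS1-IT1 and EFNB3. NAPRT, an enzyme of NAD synthesis from nicotinic acid, was measured at 5.58 and 3.22 CPM at 0 h, 7.14 and 6.37 CPM at 6 h and 0.133 and 0.168 CPM at 48 h, a late change of -5.43 ± 0.700 (SE), adjusted p = 1.5e-07. PTPRK, a receptor phosphatase of cell contacts, was at 6.59 and 7.07 CPM at 0 h, 5.93 and 10.2 CPM at 6 h and 0.266 and 0.336 CPM at 48 h, a late change of -4.71 ± 0.506 (SE), adjusted p = 6.5e-09. PARN, a poly(A)-specific ribonuclease, was at 4.71 and 6.49 CPM at 0 h, 3.2 and 2.57 CPM at 6 h and 0.222 and 0.0841 CPM at 48 h. The libraries of 6 h and 48 h were far apart for all 3, although none of them was abundant at any time. PARN's late change of -4.20 became -5.01 without the first 48 h library. At higher levels, VIPR1, a receptor for vasoactive intestinal peptide, went from 119.6 and 113 CPM to 10.4 and 10.5 CPM. EDIL3, a secreted integrin ligand, went from 393 and 402 CPM to 51.8 and 50.1 CPM, and EFNB3, an ephrin, from 7.87 and 8.51 CPM to 1.07 and 1.18 CPM. Their late changes were -3.48 ± 0.077 (SE), adjusted p = 1.1e-22, -2.96 ± 0.043 (SE), adjusted p = 1.9e-26 and -2.86 ± 0.257 (SE), adjusted p = 2.2e-10. XAGE1B and U2AF1 were also among the 10 largest falls, but both have near-identical copies in the genome and their 6 h libraries disagreed. XAGE1B stood at 20.5 and 2.09 CPM at 6 h and U2AF1 at 5.35 and 27.7 CPM. Without the first 6 h library their late changes were -1.14 and -4.18, and without the second -4.44 and -1.81, so their sizes are uncertain.

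The late step was then read together with the early step, in which 576 genes were called higher (3.06%) and 1148 lower (6.11%), and at any fold 4163 rose (22.1%) and 4851 fell (25.8%). Genes that went on in the same direction were few. They were 67 genes that kept rising (both steps called higher) and 19 that kept falling. More genes turned back, 101 after a rise and 480 after a fall. The most numerous were those that started late (a called late step and an early change under 0.5 on the log2 scale), 1109 genes rising and 483 falling. Late risers were 480 with at least 10 counts required in all 12 libraries and 2398 when defined as not called at 6 h, and late fallers were 218 with total counts. A further 216 genes rose early and held that level (a late change under 0.5), and 323 fell early and held. The classes are defined by these 2 steps, so the steps themselves are given as a description.

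**Figure D2:**
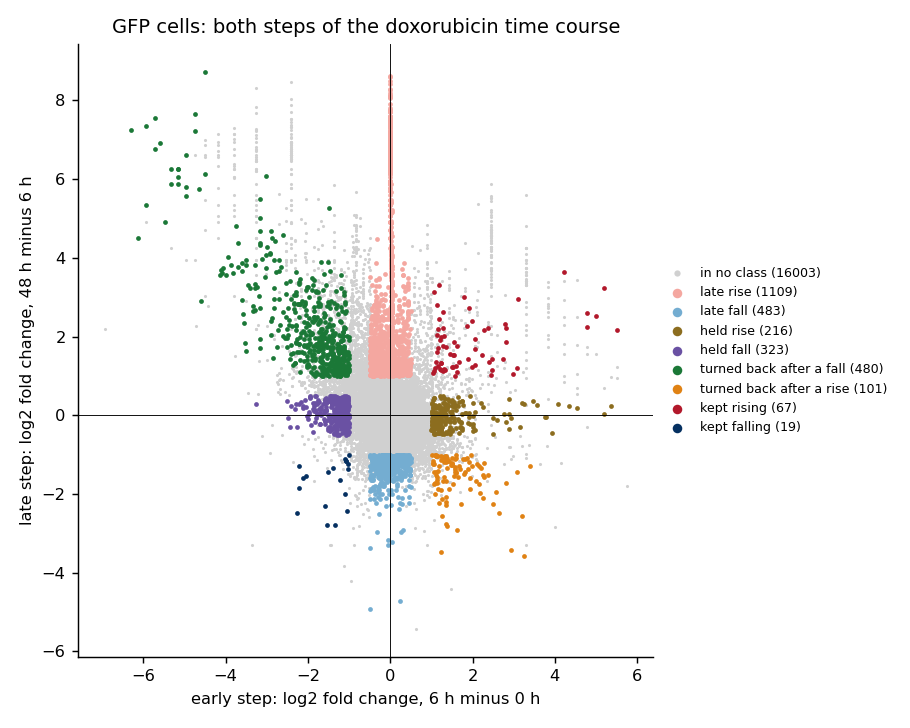
Early step (6 h minus 0 h, horizontal axis) against late step (48 h minus 6 h, vertical axis) of each gene tested in GFP cells, both as fitted log2 fold changes, coloured by class. The 480 genes that turned back after a fall fill the upper left, the 101 that turned back after a rise the lower right, and the 1109 late risers the top centre.

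Genes that kept rising were led by GRM2, SMPD3, KRT17, RELN and MYPN. KRT17, a keratin of basal and stressed epithelium, stood at 1.52 and 0.844 CPM at 0 h, 5.2 and 6.42 CPM at 6 h and 27 and 24.9 CPM at 48 h, with an early change of 2.28 ± 0.212 (SE), adjusted p = 7.2e-10, and a late change of 2.16 ± 0.104 (SE), adjusted p = 7.9e-16. SMPD3, a neutral sphingomyelinase that makes ceramide, stood at 0.456 and 0.158 CPM at 0 h, 1.89 and 2.52 CPM at 6 h and 10.2 and 10.5 CPM at 48 h, a late change of 2.23 ± 0.194 (SE), adjusted p = 1.3e-10. RELN, a secreted glycoprotein of neuronal migration, and MYPN, a sarcomere protein, reached 5.99 and 6.06 CPM and 12.5 and 11.3 CPM from 1.15 and 1.12 CPM and 1.99 and 1.55 CPM. Each step separated the libraries without overlap in these genes. GRM2, a metabotropic glutamate receptor, went from 0.101 and 0.0527 CPM at 0 h through 0.472 and 0.963 CPM to 5.46 and 5.72 CPM. The class median stood at 0.313 CPM at 0 h, 1.06 CPM at 6 h and 3.18 CPM at 48 h.

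Genes that turned back after a rise had a median level of 2.57 CPM at 0 h, 11.3 CPM at 6 h and 3.02 CPM at 48 h. Of the 101 genes, 62 ended within 0.5 of the untreated level on the log2 scale, 21 above it and 18 below. CYP24A1, the enzyme that breaks down active vitamin D, is a clear case, at 18.7 and 17.9 CPM at 0 h, 104 and 103 CPM at 6 h and 21.1 and 22.3 CPM at 48 h. Its early change was 2.50 ± 0.0905 (SE), adjusted p = 5.1e-18, and its late change was -2.25 ± 0.0866 (SE), adjusted p = 7.2e-18. RRS1, a factor of ribosome assembly, followed the same course, at 16.2 and 15.7 CPM at 0 h, 51.1 and 48 CPM at 6 h and 17.2 and 16.3 CPM at 48 h. VIPR1 rose from 51.7 and 47.8 CPM to its 6 h level and ended well below where it began. HSPA8, THBS1 and ITGB8 belong to this class too and are described with their lists. MRM1, a mitochondrial rRNA methyltransferase, was at 6.51 and 2.68 CPM at 6 h, and its late change of -2.56 became -1.79 without the first 6 h library.

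Late risers were mostly low-level genes before 48 h, although 381 of the 1109 had an average log2 CPM of at least 1 in the GFP libraries. Their median was 0.469 CPM at 0 h, 0.449 CPM at 6 h and 1.64 CPM at 48 h, and 384 of the 1109 had at most 3 counts in both 6 h libraries. The median late change was 1.91, or 1.69 with the genes that had no count at 6 h set at their lower bound. CDH1, the cadherin of epithelial junctions, stood at 0.862 and 0.58 CPM at 0 h, 1.05 and 0.749 CPM at 6 h and 10.4 and 11 CPM at 48 h, a late change of 3.57 ± 0.22 (SE), adjusted p = 1.2e-13. LAMP3, a lysosomal membrane protein known from dendritic cells, stood at 3.09 and 3.32 CPM at 0 h, 3.2 and 3.75 CPM at 6 h and 31.2 and 27.2 CPM at 48 h. USP18, the protease that removes ISG15 and dampens interferon receptor signalling, stood at 2.28 and 2.43 CPM at 0 h, 2.36 and 2.19 CPM at 6 h and 22 and 21.5 CPM at 48 h. In all 3 genes the 0 h and 6 h libraries were alike and the 48 h libraries about an order of magnitude higher. ABCA4, a lipid flippase of photoreceptors, and RSAD2, the antiviral enzyme viperin, had late changes of 3.51 ± 0.326 (SE), adjusted p = 4.1e-10 and 3.28 ± 0.169 (SE), adjusted p = 2.7e-15.

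Genes that kept falling had a median level of 14 CPM at 0 h, 3.95 CPM at 6 h and 1.45 CPM at 48 h. MUC5B, a gel-forming mucin, stood at 43.1 and 39.4 CPM at 0 h, 8.4 and 8.88 CPM at 6 h and 1.38 and 1.68 CPM at 48 h, with a late change of -2.49 ± 0.182 (SE), adjusted p = 3.8e-12. SLCO4A1, an organic anion transporter, stood at 117 and 107 CPM at 0 h, 25.2 and 23.4 CPM at 6 h and 7.06 and 6.56 CPM at 48 h, with a late change of -1.84 ± 0.098 (SE), adjusted p = 6.0e-15. F2RL3, a thrombin receptor, ended at 1.02 and 1.22 CPM and LINC02970, a noncoding RNA, at 0.399 and 0.505 CPM. The falls of these 4 genes were steep in both steps. DRAXIN, a secreted axon guidance protein, had a late change of -1.45 ± 0.326 (SE), adjusted p = 4.2e-04, but DESeq2 gave it an adjusted p of 0.16.

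Genes that turned back after a fall had a median level of 1.73 CPM at 0 h, 0.557 CPM at 6 h and 2.18 CPM at 48 h. Of the 480 genes, 249 ended within 0.5 of the untreated level, 174 above it and 57 below, and 96 had at most 3 counts in both 6 h libraries. ELF3, an epithelial ETS transcription factor, stood at 2.08 and 2.37 CPM at 0 h, 0.21 and 0.375 CPM at 6 h and 7.5 and 7.74 CPM at 48 h, a late change of 4.68 ± 0.299 (SE), adjusted p = 2.2e-13. DHRS3, a retinal reductase, stood at 8.72 and 9.86 CPM at 0 h, 1.26 and 1.45 CPM at 6 h and 17.3 and 16.6 CPM at 48 h, a late change of 3.64 ± 0.208 (SE), adjusted p = 2.4e-14. Both passed well beyond the untreated level by 48 h. ARTN, a ligand of the RET receptor system, came most of the way back, at 10.4 and 11.8 CPM at 0 h, 1.63 and 1.82 CPM at 6 h and 8.21 and 8.66 CPM at 48 h. BRSK1, a kinase of neuronal polarity, stood at 8.21 and 9.12 CPM at 0 h, 1.52 and 1.87 CPM at 6 h and 11.8 and 12.8 CPM at 48 h. SMOC1, a secreted calcium-binding matrix protein, had 2 and 5 counts in the 6 h libraries, and its late change of 4.43 became 5.20 without the second.

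Late fallers were well-expressed genes, with a median level of 31.3 CPM at 0 h, 28.5 CPM at 6 h and 11.9 CPM at 48 h. L1CAM, a neural adhesion molecule found on invasive carcinoma cells, stood at 473 and 477 CPM at 0 h, 409 and 376 CPM at 6 h and 70.6 and 68.1 CPM at 48 h, a late change of -2.50 ± 0.0494 (SE), adjusted p = 1.1e-23. EDIL3 stood at 491 and 494 CPM at 0 h before the levels given above. GGT5, a gamma-glutamyltransferase family enzyme that acts on leukotriene C4, stood at 32.5 and 37.2 CPM at 0 h, 25.3 and 24.6 CPM at 6 h and 2.35 and 2.48 CPM at 48 h, a late change of -3.36 ± 0.128 (SE), adjusted p = 6.2e-18. In each of these genes the 48 h libraries lay below every earlier library. THBS1-IT1 was at 6.46 and 6.69 CPM at 6 h and 0.666 and 1.05 CPM at 48 h, and as a transcript inside THBS1 it cannot be counted independently of that gene. Late fallers spanned a median of 47.5 kb of genome, late risers 38 kb and genes that turned back after a rise 10.8 kb, against 26.5 kb for all genes tested.

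**Figure D3:**
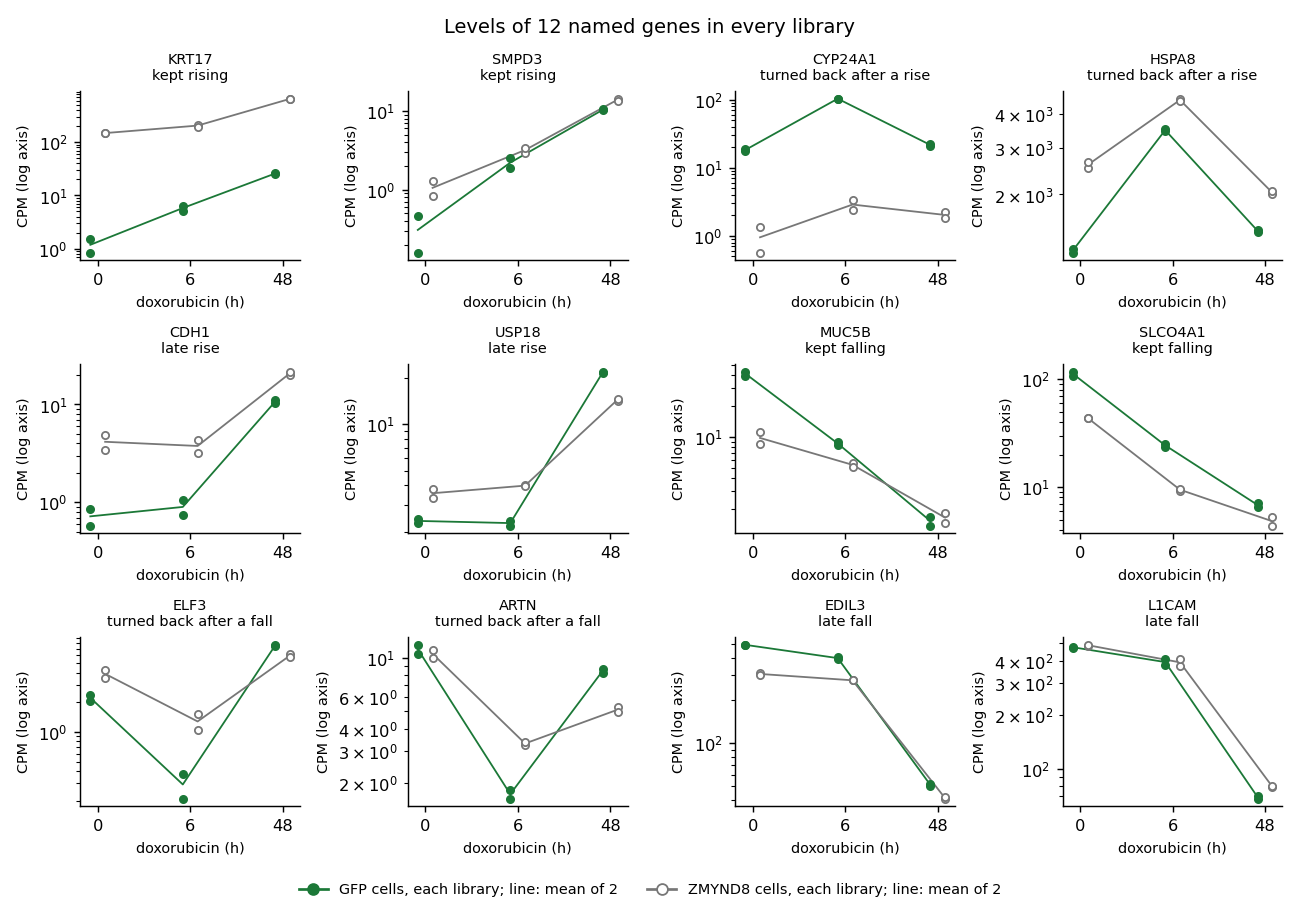
TMM-scaled CPM (log axis) of 12 named genes in every library at 0, 6 and 48 h of doxorubicin, 2 genes for each of the 6 classes that moved in the late step. Filled green points are GFP libraries and open grey points ZMYND8 libraries, with lines through the mean of 2; in GFP cells CYP24A1 peaks at 6 h, ELF3 dips at 6 h, and CDH1 and USP18 lift only at 48 h.

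Interferon-stimulated genes moved together in the late step. These are the antiviral genes switched on by interferon signalling through the interferon-stimulated response element (ISRE) in their promoters. The promoters of IFI44L and IFI6 are shown because they carry this element in genes with large late changes, IFI6 having been chosen after its values were seen. Each window runs from 250 bases before to 50 bases after the gene's start in RefSeq (GRCh38.p14), and capitals mark matches to TTTC, any 2 bases, TTTC on either strand. IFI44L lies at chr1:78620198-78620497, plus strand, and IFI6 at chr1:27672143-27672442, minus strand.
IFI44L: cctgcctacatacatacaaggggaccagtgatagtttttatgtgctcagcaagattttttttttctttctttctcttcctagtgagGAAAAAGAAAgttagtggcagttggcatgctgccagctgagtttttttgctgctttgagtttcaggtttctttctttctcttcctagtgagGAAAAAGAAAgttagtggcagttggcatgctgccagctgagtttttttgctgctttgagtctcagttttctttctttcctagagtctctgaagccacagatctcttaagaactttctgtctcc
IFI6: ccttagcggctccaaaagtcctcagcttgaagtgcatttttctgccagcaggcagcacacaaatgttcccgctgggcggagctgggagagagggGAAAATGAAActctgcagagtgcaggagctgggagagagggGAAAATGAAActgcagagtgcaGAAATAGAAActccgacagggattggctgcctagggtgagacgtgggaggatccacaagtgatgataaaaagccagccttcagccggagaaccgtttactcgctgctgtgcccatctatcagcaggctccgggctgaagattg

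The IFI44L window holds 2 matches and the IFI6 window 3. Such a match was found in 22 of 36 promoters of the interferon list (61.1%), in 5.88% of late risers' promoters and in 2.83% of the 12574 promoters of tested genes. Of the 42 late risers with a match, 9 are in the interferon list. A match is a description of these letters, not evidence that a factor was bound.

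Of 48 listed interferon-stimulated genes 45 could be tested, of which 39 rose and 3 fell, beside 32% and 30.2% of all genes. The median late change was 1.40, against 0.04 over all genes tested. In the early step 4 of them rose and 25 fell, with a median of -0.33. IFI44L, an interferon-induced protein of little-known function, went from 0.262 and 0.321 CPM at 6 h to 9.77 and 9.34 CPM at 48 h, a late change of 5.01 ± 0.263 (SE), adjusted p = 3.8e-15. IFI6, a mitochondrial and endoplasmic reticulum antiviral protein, stood at 26.5 and 27.3 CPM at 0 h, 22.3 and 24.1 CPM at 6 h and 181 and 173 CPM at 48 h, a late change of 2.93 ± 0.0589 (SE), adjusted p = 1.2e-23. OAS1, which makes the second messenger that activates RNase L, stood at 5.22 and 5.91 CPM at 0 h, 3.31 and 3.48 CPM at 6 h and 29.3 and 30.1 CPM at 48 h, a late change of 3.13 ± 0.127 (SE), adjusted p = 2.2e-17. All 3 had dipped or stayed level at 6 h and were above every untreated library at 48 h. RSAD2 was at 1.01 and 0.738 CPM at 0 h, 1.15 and 1.18 CPM at 6 h and 11.5 and 11.3 CPM at 48 h. The 3 members that fell were IRF1, an early transcription factor of the pathway, at -0.65 ± 0.0442 (SE), adjusted p = 9.1e-13, IFITM2, which blocks viral entry, at -0.31, and BST2, the tether of budding virions, at -0.14. With total counts BST2 changed by 0.11 instead and IFITM2 no longer passed, at -0.06 (adjusted p = 0.29), which left 1 fall. For BST2, the adjusted p was 0.084 without the first 6 h library. Without the second 6 h library 5 members fell in place of 3.

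Cell cycle genes also rose, those of DNA replication in both steps. E2F factors switch on replication genes as cells enter S phase, through a site that resembles TTTNNCGC. Genes of mitosis are held back until G2 by the DREAM complex at the cell cycle homology region (CHR, TTTGAA). Promoters of 4 members of these lists follow, in the same windows and build, with E2F matches in capitals for E2F2 and HELLS and CHR matches for NDC80 and ESPL1. E2F2 lies at chr1:23531184-23531483, minus strand, HELLS at chr10:94545538-94545837, plus strand, NDC80 at chr18:2571307-2571606, plus strand, and ESPL1 at chr12:53268049-53268348, plus strand.
E2F2: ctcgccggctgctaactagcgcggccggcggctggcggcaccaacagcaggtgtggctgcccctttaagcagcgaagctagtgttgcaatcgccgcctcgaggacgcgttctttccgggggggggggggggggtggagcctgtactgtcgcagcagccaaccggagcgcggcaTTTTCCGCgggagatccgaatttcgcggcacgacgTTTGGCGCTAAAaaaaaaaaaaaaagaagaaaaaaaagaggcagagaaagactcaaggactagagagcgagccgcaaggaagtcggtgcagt
HELLS: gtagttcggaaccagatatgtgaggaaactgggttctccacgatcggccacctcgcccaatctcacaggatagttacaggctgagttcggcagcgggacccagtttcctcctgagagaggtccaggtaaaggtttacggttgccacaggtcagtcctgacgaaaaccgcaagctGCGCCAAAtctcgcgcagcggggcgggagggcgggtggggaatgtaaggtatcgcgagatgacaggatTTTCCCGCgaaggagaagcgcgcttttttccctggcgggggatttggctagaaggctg
NDC80: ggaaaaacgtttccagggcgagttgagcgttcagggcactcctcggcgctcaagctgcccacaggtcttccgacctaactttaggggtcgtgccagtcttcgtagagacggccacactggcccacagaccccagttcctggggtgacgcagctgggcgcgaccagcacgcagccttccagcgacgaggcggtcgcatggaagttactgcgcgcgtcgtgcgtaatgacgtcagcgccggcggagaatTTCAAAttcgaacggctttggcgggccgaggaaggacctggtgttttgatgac
ESPL1: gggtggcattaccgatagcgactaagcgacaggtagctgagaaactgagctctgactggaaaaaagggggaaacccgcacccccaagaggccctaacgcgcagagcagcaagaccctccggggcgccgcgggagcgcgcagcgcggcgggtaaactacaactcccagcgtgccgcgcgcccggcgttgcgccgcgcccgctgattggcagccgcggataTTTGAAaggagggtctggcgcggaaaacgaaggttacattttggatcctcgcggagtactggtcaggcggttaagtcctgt

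The E2F2 window holds 3 matches, 2 of which overlap, and the HELLS window 2. The NDC80 and ESPL1 windows hold 1 match each. TTTNNCGC, read on both strands, was in 25 of 42 promoters of the replication list (59.5%), against 9.86% of all promoters of tested genes. TTTGAA was in 28 of 42 promoters of the mitosis list (66.7%), against 10.2% of all and 15% of late risers. The CCAAT box (CCAAT), a site of NF-Y, was in 78.6% of mitosis promoters, 90.9% of histone promoters and 76.2% of cholesterol synthesis promoters, against 36.1% of all. The CRE (TGACGTCA) was in 3.06% of all promoters and 1.82% of late risers', and the AP-1 site (TGANTCA) in 5.21% and 7.98%.

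Of 49 replication and E2F target genes 45 rose in the late step and 3 fell, with a median of 0.69. In the early step 45 rose and none fell, with a median of 0.54. E2F2 itself, one of the activator E2Fs, stood at 5.47 and 7.07 CPM at 0 h, 13.1 and 10.5 CPM at 6 h and 59.5 and 59.7 CPM at 48 h, a late change of 2.34 ± 0.094 (SE), adjusted p = 1.8e-17. E2F8, an atypical E2F that represses the others, stood at 15.5 and 18.6 CPM at 0 h, 30.9 and 31.6 CPM at 6 h and 98.9 and 106 CPM at 48 h, a late change of 1.72 ± 0.0627 (SE), adjusted p = 2.8e-18. TK1, thymidine kinase, stood at 139 and 125 CPM at 0 h, 158 and 162 CPM at 6 h and 445 and 428 CPM at 48 h. HELLS, a chromatin remodeller needed for DNA methylation, stood at 37 and 38.6 CPM at 0 h, 48.3 and 51.8 CPM at 6 h and 123 and 130.4 CPM at 48 h. E2F2, E2F8, TK1 and HELLS each changed more in the late step than in the early one. Their early changes were 0.91, 0.88, 0.28 and 0.41. CCNE1, the cyclin of S phase entry, changed by -0.27, and the replicative helicase subunits MCM5 and MCM6 by -0.19 and -0.11. These 3 small falls did not hold under every setting. CCNE1 had an adjusted p of 0.086 without the second 6 h library, and MCM6 0.11, which left 1 fall in the list without that library. With total counts MCM5 changed by 0.06 and MCM6 by 0.14, and 47 members rose and none fell.

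Of 49 mitosis and G2/M genes 36 rose late and 4 fell, with a median of 0.43, after an early step in which 8 rose and 22 fell. MYBL2, the B-MYB factor that activates mitotic genes with DREAM components, stood at 100.3 and 97.1 CPM at 0 h, 117 and 117 CPM at 6 h and 363 and 349 CPM at 48 h, a late change of 1.61 ± 0.0508 (SE), adjusted p = 1.3e-19. NDC80, which couples kinetochores to microtubules, stood at 61.1 and 58.1 CPM at 0 h, 41.6 and 40.2 CPM at 6 h and 91.7 and 95.3 CPM at 48 h, a late change of 1.19 ± 0.0539 (SE), adjusted p = 2.1e-16. ESPL1, the separase that cuts cohesin, and CDC25C, the phosphatase that activates CDK1, had late changes of 1.19 ± 0.0656 (SE), adjusted p = 1.2e-14 and 1.12 ± 0.0957 (SE), adjusted p = 8.7e-11. NDC80 and CDC25C were below the untreated libraries at 6 h and above them at 48 h. The 4 that fell were PLK1, a mitotic kinase, at -0.55 ± 0.0566 (SE), adjusted p = 3.3e-09, the kinesins CENPE and KIF14 at -0.31 and -0.29, and the kinase AURKA at -0.19. With total counts AURKA changed by 0.06, CENPE and KIF14 no longer passed (adjusted p = 0.39 and 0.5), and 42 members rose and 1 fell.

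Of 37 genes of homologous recombination, the Fanconi pathway and checkpoints 22 rose late and 6 fell, with a median of 0.40, and with total counts 28 rose and 1 fell. RAD51AP1, an accessory factor of DNA strand pairing, stood at 25.2 and 24.8 CPM at 0 h, 35.9 and 36.2 CPM at 6 h and 96.8 and 94.1 CPM at 48 h, a late change of 1.40 ± 0.0548 (SE), adjusted p = 9.7e-18. BRCA1 stood at 34.3 and 36.6 CPM at 0 h, 50.2 and 55.1 CPM at 6 h and 127 and 131 CPM at 48 h, a late change of 1.29 ± 0.0526 (SE), adjusted p = 2.3e-17. The 6 h and 48 h libraries did not overlap in either. CHEK2, a checkpoint kinase, and RAD51C, a homologous recombination factor, had late changes of 1.24 and 1.18. Replication-dependent histone genes, whose mRNAs normally lack a poly(A) tail, are mostly invisible to poly(A) selection, and 26 of 87 could be tested. Of these 15 rose and none fell, and 6 h levels were low. One member fell without the first 6 h library and without either 48 h library. H2BC11 stood at 2.36 and 2.52 CPM at 6 h and 10.9 and 11.9 CPM at 48 h and H3C10 at 0.472 and 0.696 CPM at 6 h and 2.84 and 2.44 CPM at 48 h. Histone genes are short, similar in sequence and clustered, so reads may be shared among them.

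Of 27 tested p53 targets 14 rose and 8 fell, with a median of 0.16. Called higher were 3 of the 27, beside 15.7% of all genes tested. With total counts 19 rose and 3 fell, with a median of 0.41. GDF15, a secreted stress cytokine that is also a target of ATF4, stood at 118 and 128 CPM at 0 h, 31.7 and 34.1 CPM at 6 h and 140.2 and 135 CPM at 48 h, with a late change of 2.06 ± 0.0643 (SE), adjusted p = 1.0e-19. FAS, a death receptor, stood at 4.21 and 4.8 CPM at 0 h, 4.3 and 4.6 CPM at 6 h and 14.1 and 13.3 CPM at 48 h, a late change of 1.62 ± 0.128 (SE), adjusted p = 1.8e-11. GDF15 fell early and came back to about its starting level, whereas FAS was level until 6 h. FDXR, a mitochondrial reductase, and PHLDA3, an inhibitor of AKT, had late changes of 1.00 ± 0.098 (SE), adjusted p = 1.1e-09 and 0.97 ± 0.118 (SE), adjusted p = 5.8e-08.

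The BCL2 family showed small changes. Of 15 tested genes 5 rose and 7 fell, with a median of -0.05, whereas with total counts 8 rose and 3 fell, with a median of 0.20. BBC3, the BH3-only killer PUMA, stood at 25.1 and 24.7 CPM at 0 h, 6.67 and 8.4 CPM at 6 h and 15.1 and 12.4 CPM at 48 h, a late change of 0.87 ± 0.124 (SE), adjusted p = 8.3e-07. BOK, a BAX-like effector, had a late change of -0.56 ± 0.0554 (SE), adjusted p = 1.4e-09. BAK1, an effector of the mitochondrial pore, changed by 0.38. The others that rose did not hold when a library was left out. HRK, a BH3-only protein, had a late change of 1.28, with an adjusted p of 0.14 without the second 48 h library. BIK, another BH3-only protein, changed by 0.81, with an adjusted p of 0.091 without that library, and BAX, a pore-forming effector, by 0.12, with an adjusted p of 0.16 without the first 48 h library. The list had 3 rises without the second 6 h library and 2 without the second 48 h library.

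Stress programmes other than interferon did not move as one. Of 20 genes of the integrated stress response, in which ATF4 answers stalled translation, 7 rose and 7 fell, with a median of 0.02, and with total counts 9 rose and 5 fell. DDIT3, the factor CHOP, stood at 19.7 and 22.8 CPM at 0 h, 16.9 and 15 CPM at 6 h and 40.3 and 35.4 CPM at 48 h, a late change of 1.24 ± 0.087 (SE), adjusted p = 1.6e-12. SLC7A11, the cystine importer, stood at 117 and 134 CPM at 0 h, 116 and 119 CPM at 6 h and 48.2 and 54.7 CPM at 48 h, a late change of -1.19 ± 0.0618 (SE), adjusted p = 3.3e-15. ASNS, asparagine synthetase, changed by -1.05, with an adjusted p of 0.079 without the first 48 h library. Of 19 heat shock proteins and chaperones 5 rose and 10 fell, with a median of -0.11, whereas with total counts 9 rose and 7 fell, with a median of 0.14. HSPA8, the constitutive HSC70 chaperone, turned back after a rise, at 1252 and 1209.5 CPM at 0 h, 3465 and 3514 CPM at 6 h and 1470.5 and 1448 CPM at 48 h, a late change of -1.26 ± 0.0362 (SE), adjusted p = 2.1e-20. The endoplasmic reticulum chaperones HSPA5 and HSP90B1 fell, with changes of -0.82 ± 0.0395 (SE), adjusted p = 7.0e-16, and -0.71 ± 0.0379 (SE), adjusted p = 6.1e-15. HSPB8, a small chaperone of selective autophagy, rose by 1.12 ± 0.0631 (SE), adjusted p = 1.8e-14. The other members that rose were DNAJB4, HSPA4L and HSPB1, by 0.60, 0.32 and 0.30, and HSF1 by 0.11, which had an adjusted p of 0.36 without the first 48 h library.

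Of 26 immediate early genes, mostly transcription factors induced within minutes of a stimulus, 12 rose late and 10 fell, and with total counts 15 rose and 5 fell. EGR2, a zinc finger factor, stood at 0.152 and 0.369 CPM at 0 h, 0.63 and 0.482 CPM at 6 h and 1.91 and 2.73 CPM at 48 h, a late change of 2.05 ± 0.335 (SE), adjusted p = 6.5e-06. NR4A1, an orphan nuclear receptor, stood at 5.78 and 6.01 CPM at 0 h, 5.93 and 5.46 CPM at 6 h and 17.5 and 16.5 CPM at 48 h, a late change of 1.58 ± 0.126 (SE), adjusted p = 2.4e-11. FOS, a subunit of AP-1, stood at 1.27 and 1.9 CPM at 0 h, 2.83 and 3.43 CPM at 6 h and 9.23 and 7.53 CPM at 48 h, a late change of 1.42 ± 0.164 (SE), adjusted p = 2.5e-08. EGR2 and FOS were higher at each later time, and NR4A1 only at 48 h. CCN2, a matricellular target of TGF-beta and YAP, went the other way, at 154 and 154 CPM at 0 h, 271 and 257 CPM at 6 h and 114 and 109.7 CPM at 48 h, a late change of -1.24 ± 0.047 (SE), adjusted p = 5.5e-18.

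Of 26 tested cytokine and NF-kB target genes 15 rose late and 9 fell, after an early median of -0.52, and with total counts 15 rose and 6 fell. IL11, an IL-6 family cytokine, fell early and then rose above its starting level, at 20 and 17.4 CPM at 0 h, 5.41 and 6.58 CPM at 6 h and 54.1 and 55.7 CPM at 48 h, a late change of 3.20 ± 0.0908 (SE), adjusted p = 1.9e-20. IL24, an IL-10 family cytokine, stood at 10.9 and 11.4 CPM at 0 h, 15.1 and 17.4 CPM at 6 h and 75.1 and 76.3 CPM at 48 h, a late change of 2.22 ± 0.0659 (SE), adjusted p = 3.7e-20. CCL2, the monocyte chemoattractant, fell in the late step, at 1.77 and 1.69 CPM at 0 h, 0.945 and 1.18 CPM at 6 h and 0.266 and 0.168 CPM at 48 h, a late change of -2.26 ± 0.541 (SE), adjusted p = 7.1e-04. The 48 h libraries of all 3 were clear of the 6 h libraries. CCL5, a T cell chemoattractant, had 1 and 3 counts at 6 h and 28 and 22 at 48 h. Its adjusted p was 0.026, which became 0.12 without the first 6 h library and 0.053 in DESeq2.

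Extracellular matrix and integrin genes fell for the most part, 25 of 37 lower and 6 higher, with a median of -0.71, or 24 lower and 11 higher with total counts. ITGB8, an integrin subunit that activates TGF-beta, stood at 8.52 and 9.23 CPM at 0 h, 20.6 and 21.9 CPM at 6 h and 3.42 and 3.79 CPM at 48 h, a late change of -2.56 ± 0.135 (SE), adjusted p = 4.9e-15. THBS1, the matricellular protein thrombospondin-1, stood at 1078 and 1006 CPM at 0 h, 2708 and 2615 CPM at 6 h and 588 and 577 CPM at 48 h, a late change of -2.19 ± 0.0435 (SE), adjusted p = 1.1e-23. Both had risen early and then fell below the untreated level. ITGA10, a collagen-binding integrin, and COL13A1, a transmembrane collagen, had late changes of -2.37 ± 0.338 (SE), adjusted p = 8.3e-07 and -1.83 ± 0.0444 (SE), adjusted p = 7.3e-22. The members called lower numbered 16 of 37 and those called higher 3, beside 4.44% and 15.7% of all genes tested.

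Genes of cholesterol and fatty acid synthesis fell, 21 of 28, and 2 rose, with a median of -0.52 after an early median of 0.21. With total counts 15 fell and 6 rose, with a median of -0.27. They are targets of SREBP, which senses low sterol. SCD, which desaturates fatty acids, stood at 2090.3 and 2214 CPM at 0 h, 1597 and 1574 CPM at 6 h and 699 and 684 CPM at 48 h, a late change of -1.20 ± 0.0415 (SE), adjusted p = 9.3e-19. MSMO1, a sterol oxidase, stood at 104 and 97.5 CPM at 0 h, 112 and 114 CPM at 6 h and 51.4 and 52.9 CPM at 48 h, a late change of -1.12 ± 0.0502 (SE), adjusted p = 1.7e-16. The 2 that rose were TM7SF2, a sterol reductase, by 0.75 ± 0.101 (SE), adjusted p = 3.2e-07, and FDPS, farnesyl diphosphate synthase, by 0.19. FDPS had an adjusted p of 0.067 without the second 6 h library, which left 1 rise.

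Of 77 tested cytosolic ribosomal protein genes 68 fell and 2 rose, with a median of -0.53, and with total counts 55 fell and 3 rose, with a median of -0.28. RPL37 stood at 955 and 923 CPM at 0 h, 884 and 887 CPM at 6 h and 450.4 and 429.6 CPM at 48 h, a late change of -1.01 ± 0.0385 (SE), adjusted p = 6.6e-18. RPL34, RPS14 and RPL13 had late changes of -0.98, -0.94 and -0.92. The 2 that rose, RPS27L and RPL39L, are paralogues outside the core ribosome set, with changes of 0.25 and 0.20. RPL39L had an adjusted p of 0.46 without the first 48 h library and 0.25 without the first 6 h library, which left 1 rise each. The 13 protein genes of the mitochondrial genome moved the other way. Of these 12 rose and none fell, with a median of 0.50, and DESeq2 found 6 rising. MT-ND5, a subunit of complex I, stood at 243 and 262 CPM at 0 h, 359 and 347 CPM at 6 h and 589 and 633 CPM at 48 h, a late change of 0.79 ± 0.124 (SE), adjusted p = 4.0e-06. Mitochondrial genes held 1.03% and 1.04% of counts at 6 h and 1.66% and 1.7% at 48 h.

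ZNF genes, many of them KRAB zinc finger repressors in clusters on chromosome 19, were read in 2 lists. The lists held 263 on chromosome 19 and 294 on other chromosomes, of which 235 and 242 could be tested. On chromosome 19, 124 of 235 rose and 20 fell, with a median of 0.33, and on other chromosomes 77 of 242 rose and 54 fell, with a median of 0.12. Of all genes tested, 32% rose and 30.2% fell, so the list on other chromosomes had a share of rises near that of all genes. No test of this difference was made. With total counts 164 and 149 rose, beside 8726 of all 18801 genes tested. The single genes with the largest late changes were near 0 at 6 h. ZNF366 had no count in either 6 h library and 11 and 13 at 48 h, which makes it at least 3.22-fold higher against a floor of 3 counts per library.

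Among the stemness, drug efflux and epithelial-mesenchymal genes that the study assayed, 17 of 21 could be tested and 7 rose and 7 fell, or 9 and 5 with total counts. ABCB1, the P-glycoprotein efflux pump, had no count in the GFP libraries at 0 and 6 h and 11 and 21 counts at 48 h. It was thus at least 4.27-fold higher at 48 h against the same floor, with an adjusted p of 1.7e-04, at a level of 0.488 and 0.883 CPM. ABCC2, another efflux pump, changed by 0.91 ± 0.271 (SE), adjusted p = 0.005, and ABCC1 by 0.04 (adjusted p = 0.85). The mesenchymal factors SNAI2 and ZEB1 fell, SNAI2 from 62 and 59.9 CPM to 30.1 and 33.7 CPM and ZEB1 from 73.9 and 73.2 CPM to 50.5 and 51.8 CPM. Their early changes differed in sign, at 0.76 for SNAI2 and -0.62 for ZEB1. The late fall of SNAI2 thus followed an early increase, whereas ZEB1 was lower at each later time. SOX9, a progenitor factor, changed by -0.73 ± 0.0564 (SE), adjusted p = 1.4e-11, CD44 by -0.95 ± 0.039 (SE), adjusted p = 2.5e-17, and CD24 by 0.58 ± 0.0706 (SE), adjusted p = 6.4e-08. BMI1 and NOTCH1 did not pass the test, NOTCH1 at -0.05 and BMI1 closer to 0, whereas with scaling to total counts NOTCH1 changed by 0.20 and BMI1 by 0.25 and both passed. ZMYND8, in GFP cells the endogenous gene, stood at 209 and 208 CPM at 0 h, 93.8 and 99.4 CPM at 6 h and 139 and 141 CPM at 48 h, a late change of 0.53 ± 0.0497 (SE), adjusted p = 5.2e-10. KDM5C, its demethylase partner, changed by -0.34, and EZH2 by 0.25. With total counts KDM5C no longer passed, at -0.09 (adjusted p = 0.11). ALDH1A1 had 2 and 0 counts at 6 h and 26 and 10 at 48 h, with an adjusted p of 0.0014 that became 0.052 without the first 48 h library.

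**Figure D4:**
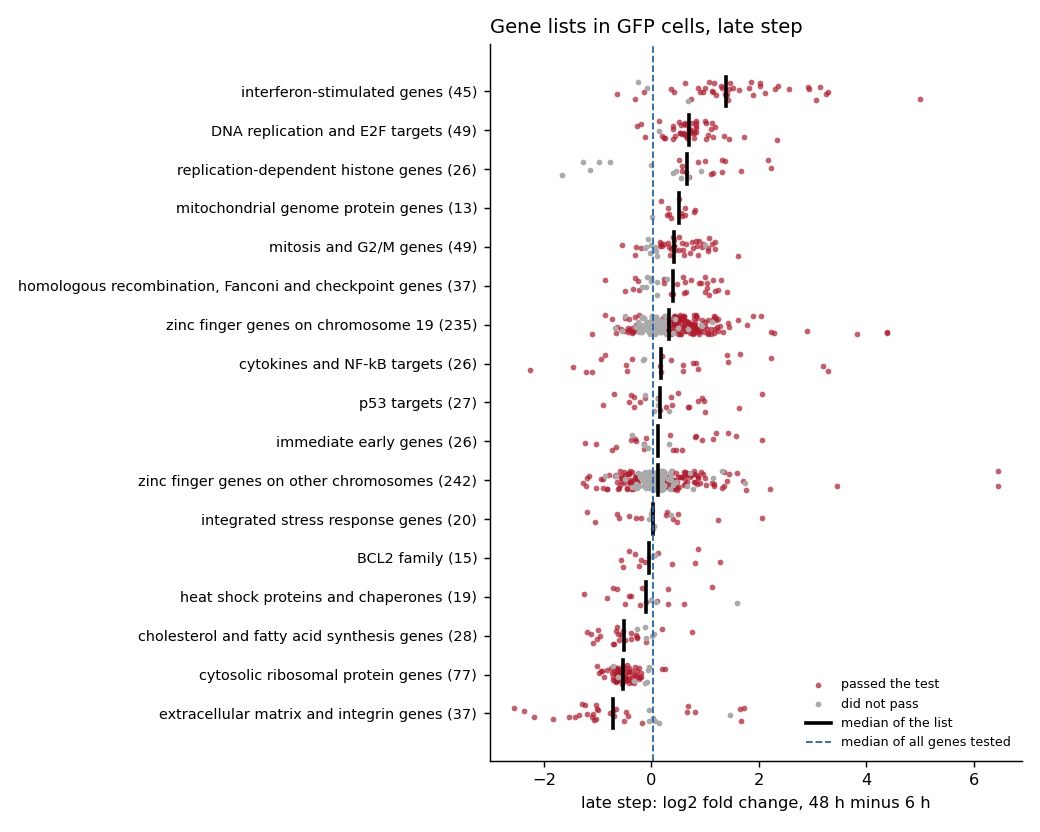
Late log2 fold change (48 h minus 6 h) in GFP cells of each tested member of the gene lists, with the number tested in brackets, red points for members that passed the test, grey for those that did not, and a black bar at each list's median. Interferon-stimulated genes have a median of 1.40 and extracellular matrix and integrin genes one of -0.71, and the dashed line marks the median of all genes tested at 0.04.

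The ZMYND8 cells gave the same comparison in other libraries, which did not enter the contrasts that define the classes but shared the filter and the estimate of the spread. With the GFP libraries alone the classes held 81 genes that kept rising, 1068 late risers and 249 held rises. They carried more ZMYND8 transcript than GFP cells, at 922 and 927 CPM at 0 h, 829 and 898 CPM at 6 h and 1001 and 924 CPM at 48 h. In them 2961 genes were called higher in the late step (15.7%) and 747 lower (3.97%). Of the genes that kept rising in GFP cells 56 of 67 were called higher in ZMYND8 cells (83.6%), of late risers 775 of 1109 (69.9%) and of genes that turned back after a fall 285 of 480 (59.4%). Called lower were 28 of 101 that had turned back after a rise (27.7%), 10 of 19 that kept falling (52.6%) and 230 of 483 late fallers (47.6%). The whole class, early step included, recurred less often in ZMYND8 cells. It did so for 8 genes that kept rising (11.9%), 10 turned back after a rise (9.9%) and 0 that kept falling. It also recurred for 111 genes turned back after a fall (23.1%), 448 late risers (40.4%) and 205 late fallers (42.4%). Of all genes tested, ZMYND8 cells had 0.122% that kept rising, 0.154% turned back after a rise and 0.0266% that kept falling. Those turned back after a fall were 1.62%, late risers 6.6% and late fallers 2.97%. The shares over all genes are no like-for-like background here, since late risers were mostly low-level genes. In GFP cells 64.1% of genes under 0.3 CPM at 6 h were called higher. The median late change of the turned-back risers was -0.73 in ZMYND8 cells and -1.43 in GFP cells, and that of the genes turned back after a fall 1.40 and 1.95. The values in GFP cells include the selection of the classes on those values.

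**Figure D5:**
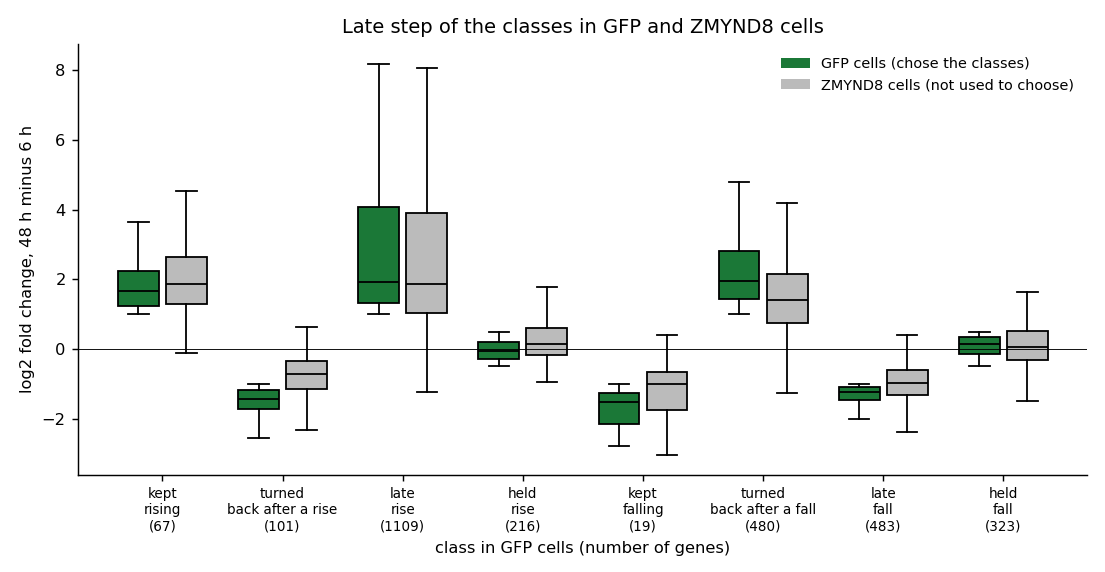
Late log2 fold change (48 h minus 6 h) by class, in GFP cells (green), whose values chose the classes, and in ZMYND8 cells (grey). Boxes show the quartiles and median and whiskers 1.5 times the interquartile range, with the number of genes in brackets; medians in ZMYND8 cells are 1.86 for late risers and -0.97 for late fallers.

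The late step itself differed between the lines for 703 genes (3.74%), called by the test of the difference, and at any fold it was higher in ZMYND8 cells for 1958 genes (10.4%) and lower for 3066 (16.3%). The 5 largest positive differences were in PTPRK, MMP8, NTM, EFNB3 and RPL13AP5, a ribosomal protein pseudogene whose reads may be shared with its parent gene. PTPRK stood in ZMYND8 cells at 4.47 and 0.788 CPM at 0 h, 1.03 and 1.21 CPM at 6 h and 3.37 and 2.42 CPM at 48 h, a difference of 6.08 ± 0.695 (SE), adjusted p = 1.9e-07. MMP8, the neutrophil collagenase, was at 8.08 and 9.21 CPM at 6 h and 2.44 and 1.89 CPM at 48 h in GFP cells and at 0 and 0 CPM at 0 h, 0.0493 and 0 CPM at 6 h and 0.325 and 0.51 CPM at 48 h in ZMYND8 cells. NTM, a neural adhesion molecule, went from 7.87 and 6.9 CPM to 2.44 and 2.4 CPM in GFP cells and from 0 and 0 CPM to 0.0813 and 0.0851 CPM in ZMYND8 cells. MMP8 and NTM were at or near 0 at 6 h in ZMYND8 cells, so the sizes of their differences rest on few counts, and for PTPRK the untreated ZMYND8 libraries disagreed. On the other side, CPA4, a carboxypeptidase, rose from 6.04 and 4.12 CPM to 27.8 and 27.8 CPM in GFP cells and was at 43.7 and 44.7 CPM at 0 h, 41 and 45.6 CPM at 6 h and 32.5 and 32.1 CPM at 48 h in ZMYND8 cells, a difference of -2.87 ± 0.145 (SE), adjusted p = 1.7e-13. DHRS3 and IFI44L had lower late changes in ZMYND8 cells, with differences of -3.22 ± 0.357 (SE), adjusted p = 1.2e-07 and -2.85 ± 0.369 (SE), adjusted p = 1.2e-06. There DHRS3 stood at 2.12 and 2.14 CPM at 0 h, 1.53 and 1.42 CPM at 6 h and 2.56 and 1.36 CPM at 48 h. IFI44L stood at 3.52 and 3.28 CPM at 0 h, 2.71 and 2.21 CPM at 6 h and 11.2 and 10.8 CPM at 48 h in those cells, against 0.558 and 0.422 CPM at 0 h, 0.262 and 0.321 CPM at 6 h and 9.77 and 9.34 CPM at 48 h in GFP cells. AMPH, an endocytic protein, went from 0.21 and 0.107 CPM to 1.64 and 1.3 CPM in GFP cells and from 11.4 and 10.6 CPM to 6.95 and 7.49 CPM in ZMYND8 cells. BRDT, a bromodomain protein of the testis, had no count in GFP cells at 0 and 6 h and 22 and 15 counts at 48 h, at least 5.01-fold higher, and stood at 29.1 and 27.4 CPM at 0 h, 23.7 and 22.6 CPM at 6 h and 21.1 and 22.4 CPM at 48 h in ZMYND8 cells. AMPH and BRDT were thus already present in ZMYND8 cells before the late step.

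By list, the replication genes had lower late changes in ZMYND8 cells, for 41 of 49 and higher for none, with a median of 0.22 in ZMYND8 cells and 0.69 in GFP cells. Of 49 mitosis genes 37 had a lower late change there and none a higher one, with medians of 0.06 and 0.43, and in ZMYND8 cells 18 rose and 14 fell. Of the 77 ribosomal protein genes 62 had a higher late change in ZMYND8 cells and none a lower one, with medians of -0.21 and -0.53. Heat shock genes had a lower late change there in 14 of 19, with medians of -0.74 and -0.11. Of 45 interferon-stimulated genes 20 were lower and 8 higher, with medians of 1.36 and 1.40. The shares over all genes tested were 16.3% lower and 10.4% higher.

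Gene span was read as a last property. In the early step the median change was -0.003 for 2967 genes under 10 kb and -0.40 for 615 genes over 250 kb, among well-measured genes (average log2 CPM of at least 1). In the late step the medians were -0.08 and -0.31, with -0.23 for the 1831 genes of 100 to 250 kb. The longest genes had the lower median in both steps, with an interquartile range of -0.83 to 0.23 in the late step. Scaling to total counts moves the median late change of all genes up by 0.248. The late medians of -0.08 and -0.23 lie less far below 0 than this shift, so their sign depends on the scaling. The median of -0.31 for the longest genes lies further below 0 than the shift. Medians by span were not computed with total counts. In ZMYND8 cells the late medians were -0.02 for the shortest and -0.40 for the longest genes.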

How the data were processed

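Polyadenylated RNA was sequenced as read pairs. The authors deposited raw counts per gene for the inducible system, which the headers credit to featureCounts 1.6.4 with GENCODE release 31, reverse-stranded. The study's methods name TopHat as aligner to hg38 and the submitters' processing notes HISAT2, so the aligner is uncertain. The library kit is not described as stranded. Among 377 genes with at least 90% of their exons inside those of an antisense gene of at least 20 CPM, the median count per base was 0.0906 of the antisense partner's, and 33 exceeded 0.5.

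Of 60603 genes, 18801 passed edgeR's filter by expression. Counts of 12 libraries (18300628 to 23724398) were scaled with TMM and modelled with a mean for each condition in edgeR 4.0.16 under R 4.3.3, and the contrasts were tested with its quasi-likelihood test and Benjamini-Hochberg adjustment. Called genes had an adjusted p of at most 0.05 and a log2 change of at least 1. Alternatives included other scalings and filters, DESeq2 1.42.0, a cutoff of 1.5, a replicate block and each library left out. Replicate numbers did not pair the GFP libraries (correlations of deviations -0.031, 0.057 and 0.038). Replicates of a group differed by a chi-square of 2.19 to 5.21 per degree of freedom, so none was taken for a repeat of another. P-values rest on the spread between replicate libraries, estimated over all 12 libraries of both lines and moderated across genes. Each line is 1 cell population, so they do not measure a spread between populations.

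On counts simulated for the 48 h versus 6 h comparison, with 17395 genes fitted, 98% of 101 genes changed 2-fold and 100% of 99 changed 4-fold were recovered, and 4.35% of the genes that passed were false. The changed genes were drawn only from those with an average log2 CPM above 1, and all other genes were left unchanged. The recovery rates therefore do not cover lower genes. Of the 2945 genes called higher in the data, 887 had an average log2 CPM of at least 1 in the GFP libraries. The data also held far more changed genes than the simulation.

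The members and lists were chosen with earlier results of these data known. Named genes were the 10 largest rises and falls, 5 per class and 5 each way between the lines among called genes whose average log2 CPM reached 1, without overlap of libraries and a symbol that is no clone name. To these came 4 per list, members of 5 or fewer that moved against their list, the genes the study assayed and the line markers. Some named genes are not described singly, and some are not reported here. Promoters came from RefSeq (12574 tested genes matched by symbol).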

Additional observations from a re-analysis of the deposited data

Results flagged for a closer look

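The late step (48 h minus 6 h) differed between ZMYND8 and GFP cells, by the test of the difference in log2 change, for 703 genes. Of these, 35 are named in the text, and their differences (ZMYND8 minus GFP) are given as values with no explanation.

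The late change was higher in ZMYND8 cells for PTPRK (6.08), MMP8 (5.74), NTM (5.51), EFNB3 (3.91), RPL13AP5 (3.88), NAPRT (3.43), XAGE1B (3.38), PARN (3.36), U2AF1 (3.31), ITGB8 (2.32), MRM1 (2.27), THBS1-IT1 (1.86), CYP24A1 (1.76) and VIPR1 (1.36). Of these, XAGE1B, U2AF1 and MRM1 had 6 h libraries of GFP cells that disagreed.

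The late change was lower in ZMYND8 cells for BRDT (-7.17), ESR1 (-5.03), AMPH (-3.77), DHRS3 (-3.22), CPA4 (-2.87), IFI44L (-2.85), ELF3 (-2.45), CCN5 (-2.12), IL11 (-2.10), RSAD2 (-1.85), CRABP2 (-1.71), ARTN (-1.66), EGR2 (-1.50), SCD (-1.50), OAS1 (-1.43), USP18 (-1.40), HSPA4L (-1.35), ABCC1 (-1.12), CDH1 (-1.10), GDF15 (-1.04) and HSPB8 (-1.02). MMP8 and NTM were at or near 0 in ZMYND8 cells at 6 h. BRDT and ESR1 had no count in the 6 h libraries of GFP cells, so their differences depend on the prior count of the fit and are no measure of size.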

How the results depend on the processing

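Under scalings, filters, tools and left-out libraries most counts stayed within 1.5 times, and 119 of 145 named genes kept their side of the test and their direction under every alternative. Scaling to total counts lowered the genes called lower to 401, those that fell to 3384, genes turned back after a rise to 63 and late fallers to 218, and turned AURKA (0.0561), BMI1 (0.25), BST2 (0.11), MCM5 (0.0575), MCM6 (0.14) and NOTCH1 (0.20) positive. DESeq2 called 3243 genes, 2540 higher and 703 lower, and 441 genes between the lines. Requiring at least 10 counts in all 12 libraries left 13783 genes in the test and gave 1495 called genes, 1014 higher and 481 lower, of which 1323 were among the 3780. The classes then held 23 genes (kept rising), 54 (turned back after a rise), 480 (late rise), 10 (kept falling), 217 (turned back after a fall) and 297 (late fall), and 415 genes differed between the lines. Without a filter 4766 of 39998 genes were called. The unadjusted p gave 1112 genes between the lines. A cutoff of 1.5 left 2367 called genes, 236 of them lower, classes of 23, 21 and 719 genes (kept rising, turned back after a rise, late rise), 6, 254 and 116 (kept falling, turned back after a fall, late fall), 68 and 75 (held rise, held fall), and 386 between the lines. Defining late risers as not called at 6 h, in place of an early change under 0.5, gave 2398. Leaving out 1 library gave 3669 to 4250 called genes, 2834 to 3376 higher and 835 to 874 lower, with 10688 to 12163 passing at any fold, 5319 to 6359 higher and 5257 to 5804 lower. Classes held 46 to 61 (kept rising), 97 to 111 (turned back after a rise), 1075 to 1348 (late rise), 187 to 216 (held rise), 14 to 23 (kept falling), 405 to 435 (turned back after a fall), 455 to 510 (late fall) and 275 to 344 genes (held fall), and 593 to 705 genes differed between the lines. With 1 library left in a group, that library is assumed to vary like the others. Blocking on the replicate number called 3740 genes, 3727 of them among the 3780 called without it. The GFP libraries alone gave 3522, and no value between the lines. For changes other than those of the cutoff the cause was not tested. Counts on the held classes, at any fold and without single ZMYND8 libraries were added after seeing the data. With 2 libraries a side and few counts at 6 h, fold sizes of low genes are imprecise.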
